A study of Mus musculus with 59 samples.

Results

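The NMDA receptor is a glutamate-gated channel encoded in the mouse by 7 genes: Grin1, Grin2a, Grin2b, Grin2c, Grin2d, Grin3a and Grin3b. All 7 were found by symbol among the 24346 symbols of a table of FPKM, sequenced fragments scaled for transcript length and library total, and they were followed through all 59 RNA sequencing libraries of the study. The libraries were made from total RNA of the ventral tegmental area (VTA) of male mice, where the dopamine neurons that reach the striatum and cortex have their cell bodies. Cocaine, a blocker of the dopamine transporter, or saline was given in 4 ways, here called paradigms. Acute home cage injection had 5 cocaine and 6 saline libraries, chronic home cage injection 6 and 6, conditioning 6 and 6, and intravenous self-administration 15 and 9. The labels give no strain, age, genotype, dose or time of collection. Nor do they say whether each sample came from its own animal, so the p-values below speak for the spread among samples, part of which could be technical.

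NMDA receptors open when glutamate and a co-agonist, glycine or D-serine, are bound and the membrane is depolarised enough to expel magnesium from the pore, and they then admit calcium. GluN1, from Grin1, is the obligatory subunit; the GluN2 subunits, from Grin2a to Grin2d, set the time course, the magnesium sensitivity and the intracellular partners, and GluN3 subunits lower calcium entry. In dopamine neurons of the VTA these receptors are known for their part in burst firing and in the synaptic plasticity that follows exposure to cocaine.

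The self-administration libraries stood apart from the 35 others on the first principal component, which held 37.9% of the variance of log2(FPKM + 1): they lay between -34.6 and -12.6, and the others between 6.93 and 21.4. The labels name no batch, so the way of giving the drug and any difference in sequencing cannot be told apart there. Sums of FPKM ran from 398577 to 457508 per library, and the read depth is unknown. The VTA label was set against markers of dopamine neurons and of other brain regions. Th, the rate-limiting enzyme of dopamine synthesis, averaged 258 to 424 FPKM in the 8 groups and Slc6a3, the dopamine transporter, 261 to 358 FPKM. The summed level of 10 dopamine neuron markers ran from 665 to 2750 FPKM between libraries. The summed level of 4 markers of cortical and hippocampal glutamate neurons was at most 31.6 FPKM in any library, and that of 3 cerebellar granule cell markers at most 3.48 FPKM. That of 4 hypothalamic and mammillary markers reached 223 FPKM in self-administration saline (median 47.4 FPKM) and 77.0 FPKM in other saline libraries (median 25.6 FPKM). The share of such tissue in each library was not tested. Because whole tissue was sequenced, fewer cells of a type and less RNA per cell cannot be told apart in any value below.

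The subunit genes covered a wide range of levels per transcript length. Grin1 averaged 72.3 FPKM over all libraries, higher than 94.4% of detected genes. Grin3a followed with 12.2 FPKM and Grin2d with 10.3 FPKM, then Grin2c with 7.29 FPKM. Grin2a (3.99 FPKM) and Grin2b (3.08 FPKM), the main GluN2 genes of the adult forebrain, lay near the middle of detected genes, at the percentiles 50.9 and 47.7. Grin3b was lowest at 0.673 FPKM, at percentile 33.9. It was the most variable over all libraries, with a coefficient of variation of 63.4%, against 13.8% for Grin1 and 11.8% for Grin2c. That figure includes the gap between self-administration and the other paradigms. Within the 24 self-administration and the 35 other libraries taken apart it was 48.1% and 41.8% for Grin3b. No subunit gene was listed at 0 in any library.

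**Figure D1:**
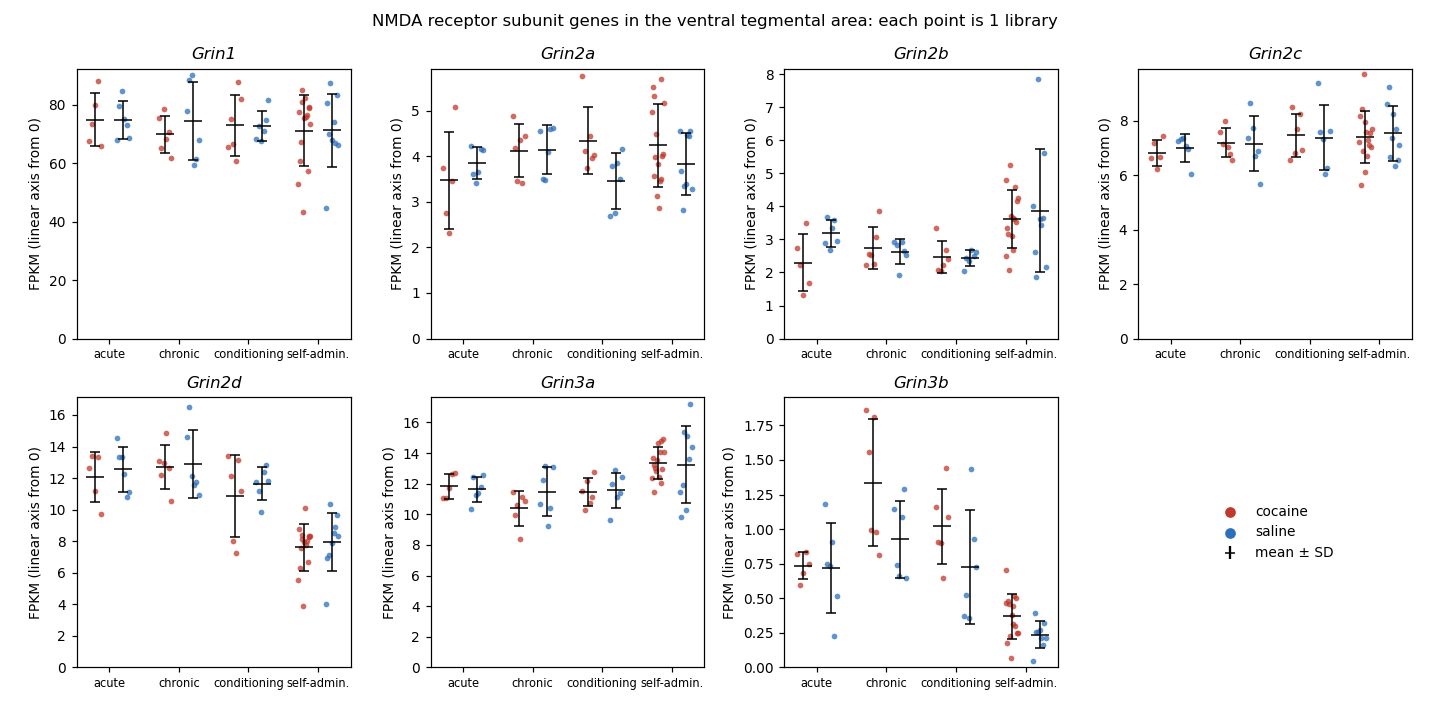
FPKM (linear axes from 0) of the 7 NMDA receptor subunit genes in each library, by paradigm, with cocaine left of saline and bars for mean ± SD. Grin1 group means lie between 69.9 and 74.8 FPKM in all 8 groups, whereas Grin2d and Grin3b are lower, and Grin2b and Grin3a higher on average, in self-administration than in the other paradigms.

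The genes lie apart in the GRCm38 assembly (GENCODE M21 annotation). Grin1 is at chr2:25291181-25319187, Grin2a at chr16:9567898-9995560, Grin2b at chr6:135713233-136173511, Grin2c at chr11:115249169-115267243, Grin2d at chr7:45831883-45878378 and Grin3a at chr4:49661611-49845744, all on the minus strand. Grin3b is at chr10:79970715-79977190 on the plus strand. Exons of Grin1 share 1307 bases with the opposite-strand RNA Grin1os, exons of Grin3b share 1059 bases with Tmem259, and exons of Grin2d share 643 bases with the antisense RNA Gm45441. Whether strand was used in counting is not stated, so fragments from these shared stretches cannot be assigned with certainty. Grin2a overlaps no annotated gene.

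RefSeq promoter sequence was at hand for 4 of the 7 genes. Grin1 and Grin2d are shown because their levels moved together between libraries, as described at the end. The 250 bases before the RefSeq start (GRCm38.p6, minus strand) are chr2:25319188-25319437 for Grin1 and chr7:45866682-45866931 for Grin2d. The RefSeq start of Grin2d lies inside the longer GENCODE interval. Capitals mark the half-site of the cyclic AMP response element, TGACG or on the other strand CGTCA, to which the activity-dependent factor CREB binds.
Grin1: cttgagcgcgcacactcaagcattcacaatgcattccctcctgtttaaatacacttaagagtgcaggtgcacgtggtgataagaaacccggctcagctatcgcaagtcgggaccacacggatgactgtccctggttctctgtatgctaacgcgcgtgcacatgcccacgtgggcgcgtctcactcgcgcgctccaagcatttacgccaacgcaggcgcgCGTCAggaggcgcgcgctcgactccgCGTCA
Grin2d: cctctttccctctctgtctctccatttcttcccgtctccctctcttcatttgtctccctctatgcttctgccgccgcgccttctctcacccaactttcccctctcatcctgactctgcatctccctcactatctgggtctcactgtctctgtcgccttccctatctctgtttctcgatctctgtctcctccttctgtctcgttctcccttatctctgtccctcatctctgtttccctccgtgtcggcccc
The Grin1 stretch holds 2 copies of the half-site and the Grin2d stretch none, and the motif occurs in 17.8% of 32851 mouse promoters of the same length. Neither holds a GC box (GGGCGG or CCGCCC, the motif of Sp1-type factors), which 32.7% of the promoters hold. The Grin1 stretch has 58.8% G and C and the Grin2d stretch 54.4%. These are matches of letters, and no binding was measured.

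Cocaine and saline were first compared within each paradigm, which asks whether NMDA receptor gene expression in the VTA differed with cocaine in that paradigm. Whether the difference depended on the paradigm was tested apart, as described below. No subunit gene passed the threshold in any paradigm: 0 of 6 tested genes did so in acute, 0 of 7 in chronic, 0 of 6 in conditioning and 0 of 6 in self-administration (limma on log2(FPKM + 1), Benjamini-Hochberg adjusted p under 0.05 over all genes). The share of all tested genes past that threshold was 0% in each of these comparisons. At an unadjusted p under 0.05, 1 subunit gene was counted in acute, 0 in chronic, 1 in conditioning and 0 in self-administration, against 3.91%, 7.38%, 8.21% and 3.43% of all tested genes. The gene in acute was Grin2b and that in conditioning Grin2a. Grin3b reached the minimum mean of 1 FPKM in chronic alone, where the cocaine libraries were high, and it is described from fits without that filter in every paradigm.

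Grin1, without which no NMDA receptor reaches the surface, was nearly level. It averaged 74.8 ± 9.17 FPKM with acute cocaine and 74.8 ± 6.56 FPKM with acute saline (SD, n = 5 and 6). With self-administered cocaine it averaged 71.1 ± 12.2 FPKM and with self-administered saline 71.2 ± 12.5 FPKM (SD, n = 15 and 9). Its log2 difference, cocaine minus saline, was between -0.07 and 0.00 in the 4 paradigms, and the 95% intervals reached no further than -0.30 and 0.22.

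Grin2a, whose subunit gives receptors with fast decay, was higher on average with conditioning cocaine. It had 3.75 FPKM in the lowest, 4.08 FPKM in the median and 5.75 FPKM in the highest of 6 conditioning cocaine libraries, against 2.69, 3.65 and 4.17 FPKM in 6 conditioning saline libraries. All 6 cocaine libraries lay above the saline median, and the groups overlapped, with 2 cocaine libraries above every saline library. The log2 difference was 0.26 ± 0.10 (SE; 95% interval 0.05 to 0.48), with an unadjusted p of 0.0214 and an adjusted p of 0.591 in limma, so it did not pass the threshold. Leaving out 1 library at a time gave 0.19 to 0.31. The differences of Grin2a elsewhere were -0.15 ± 0.13 in acute, -0.01 ± 0.09 in chronic and 0.11 ± 0.09 in self-administration (SE). In self-administration 5 of 15 cocaine libraries lay above every saline library. In conditioning the general neuronal markers summed to 2540 to 3530 FPKM with cocaine and 2340 to 3360 FPKM with saline, with 4 of 7 positive, a median log2 difference of 0.05 and none past the threshold, and their part in the Grin2a difference was not tested.

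Grin2b, whose subunit gives slower receptors with a long intracellular tail that binds CaMKII, had its lowest group mean with acute cocaine. Acute cocaine libraries 0 to 4 had 2.75, 2.23, 1.31, 3.50 and 1.68 FPKM, against 2.68 FPKM in the lowest, 3.15 FPKM in the median and 3.69 FPKM in the highest of 6 acute saline libraries. The groups overlapped: 3 of 5 cocaine libraries lay below every saline library, 1 lay above the saline median and none above the highest. The log2 difference was -0.38 ± 0.15 (SE; 95% interval -0.70 to -0.06), with an unadjusted p of 0.0232 and an adjusted p of 0.985 in limma. In the same libraries the 10 dopamine neuron markers all had negative differences, with a median of -0.42 and none past the threshold. Their summed level was 701 to 2190 FPKM with acute cocaine and 1280 to 2390 FPKM with acute saline, and their part in the Grin2b difference was not tested. In the other paradigms the Grin2b difference was 0.04 ± 0.10 (chronic), 0.00 ± 0.08 (conditioning) and -0.01 ± 0.15 (self-administration; SE).

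Grin2c, a GluN2 gene known for glial as well as neuronal expression, had log2 differences between -0.03 and 0.02 in the 4 paradigms, none past the threshold. Its intervals were narrow, from -0.17 to 0.21 at their widest, which is the conditioning comparison. Grin2d, whose subunit gives very slowly decaying receptors and is typical of midbrain and diencephalon, differed by -0.05 ± 0.09 in acute, -0.01 ± 0.09 in chronic, -0.12 ± 0.13 in conditioning and -0.05 ± 0.12 in self-administration (SE). With conditioning cocaine the 6 Grin2d values ran from 7.27 to 13.4 FPKM, with a median of 11.7 FPKM, against 9.85 to 12.9 FPKM with a median of 11.8 FPKM with conditioning saline. The cocaine values thus spread further than the saline values on both sides.

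Grin3a, whose subunit reduces calcium entry and has been studied in dopamine neurons after cocaine, had its lowest group mean with chronic cocaine. It had 8.36, 10.7 and 11.5 FPKM in the lowest, median and highest of 6 chronic cocaine libraries, against 9.21, 11.5 and 13.2 FPKM in 6 chronic saline libraries. The groups overlapped, and the 6 cocaine values all lay below the saline median. The log2 difference was -0.13 ± 0.09 (SE; 95% interval -0.32 to 0.06), with an unadjusted p of 0.174 and an adjusted p of 0.798 in limma. In acute, conditioning and self-administration it lay between -0.01 and 0.03.

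Grin3b, the least abundant subunit gene, was higher on average with cocaine than with saline in each paradigm. In chronic it had 0.815, 1.27 and 1.86 FPKM in the lowest, median and highest chronic cocaine library, against 0.647, 0.912 and 1.29 FPKM with chronic saline. The groups overlapped, with 3 of 6 cocaine libraries above every saline library. Without the filter on low values the log2 difference was 0.27 ± 0.13 in chronic (SE; limma, unadjusted p 0.0686, adjusted p 0.7785). It was 0.04 ± 0.12 in acute (SE; limma, unadjusted p 0.778, adjusted p 0.990) and 0.25 ± 0.14 in conditioning (SE; limma, unadjusted p 0.102, adjusted p 0.727). In self-administration it was 0.14 ± 0.06 (SE; 95% interval 0.01 to 0.27), with an unadjusted p of 0.0335 and an adjusted p of 0.9995 in limma, a value outside the count of tested genes above. All 6 conditioning cocaine libraries lay above the conditioning saline median, and 7 of 15 self-administration cocaine libraries lay above every self-administration saline library. Averaged over the 4 paradigms, the unfiltered fit gave 0.17 ± 0.055 (SE; 95% interval 0.06 to 0.28) with an unadjusted p of 0.00309 and an adjusted p of 0.319 in limma, short of the threshold. On a scale with 1 FPKM added, changes of so low a gene are understated.

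**Figure D2:**
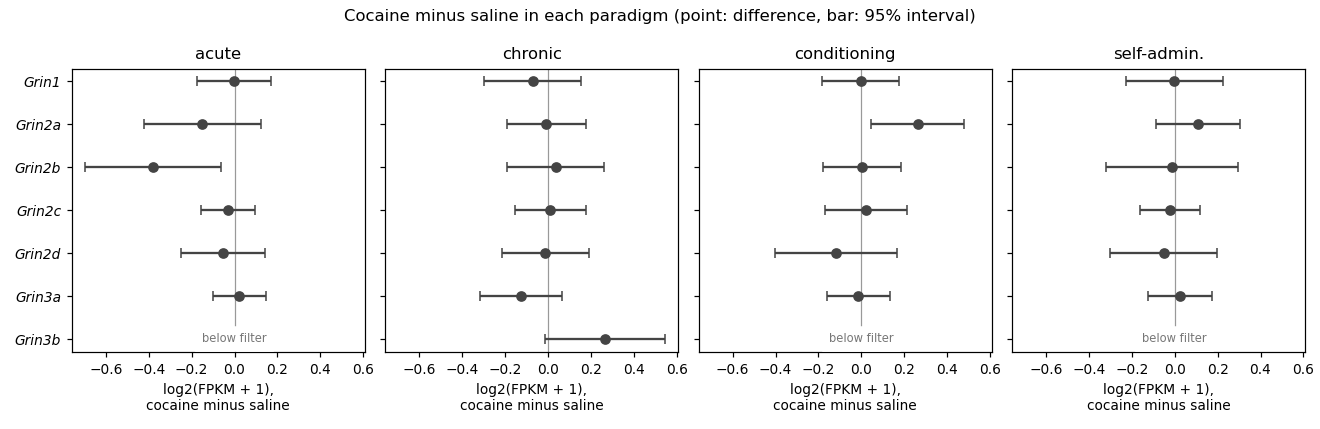
Differences in log2(FPKM + 1), cocaine minus saline, for each subunit gene in the 4 paradigms; points are estimates, bars 95% intervals, and "below filter" marks a gene under the minimum mean of 1 FPKM. The intervals of Grin2b in acute and Grin2a in conditioning leave out 0 before adjustment for multiple testing.

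An average effect of cocaine over the 4 paradigms was fitted with the paradigm as an additive term. It lay between -0.07 and 0.07 for the 6 tested subunit genes, from -0.07 ± 0.08 for Grin2b to 0.07 ± 0.06 for Grin2a (SE), and 0 of 6 passed the threshold, at either the adjusted or the unadjusted level, where 0.00758% and 12.8% of all genes did. Differences between the cocaine effects of the paradigms were tested in 1 fit of the 8 group means. The moderated F test called 0 of 6 subunit genes, as against 0% of all genes, and at an unadjusted p under 0.05 it counted 0 of 6, as against 1.43% of all genes. The widest gap between paradigms that reached an unadjusted p under 0.05 was that of Grin2a, 0.41 ± 0.18 higher in conditioning than in acute (SE; limma, unadjusted p 0.0224, adjusted p 1), a pair for which 1.41% of all genes had an unadjusted p under 0.05. Thus the Grin2a and Grin2b differences in single paradigms were not shown to be particular to those paradigms.

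Apart from the 0.1 FPKM added to each value, subunit ratios within a library do not depend on scaling between libraries. Effects of GC content and fragment length that differ between genes need not cancel in them. The ratio of Grin2b to Grin2a is the usual summary of GluN2 make-up. Of 32 tests, 8 ratios in 4 paradigms, 0 passed the threshold after adjustment (exact two-sided permutation tests of log2 ratios, Benjamini-Hochberg). The smallest p was that of Grin2b/Grin2a in conditioning. The ratio was 0.512, 0.572 and 0.683 in the lowest, median and highest conditioning cocaine library, against 0.636, 0.713 and 0.853 with conditioning saline. The groups overlapped at their edges. The mean was 0.577 ± 0.064 with cocaine and 0.723 ± 0.079 with saline (SD, n = 6 each), a log2 difference of -0.32 with an exact permutation p of 0.00649 and an adjusted p of 0.208. Leaving out 1 library at a time gave -0.37 to -0.28. Grin2d/Grin2a was also lower on average with conditioning cocaine, by a log2 difference of -0.46 (exact permutation p 0.026, adjusted 0.393), and both ratios share the Grin2a value. In acute, Grin2b/Grin1 had a log2 difference of -0.52 (exact permutation p 0.0368, adjusted 0.393).

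Across groups, Grin2b/Grin2a was below 1 in most libraries. It averaged 0.701 ± 0.252 with acute cocaine and 0.835 ± 0.127 with acute saline, and 0.687 ± 0.181 with chronic cocaine and 0.649 ± 0.103 with chronic saline (SD). In self-administration it averaged 0.879 ± 0.208 with cocaine and 1.02 ± 0.52 with saline (SD, n = 15 and 9). The last mean rests in part on saline library 3, at 2.31, with the median at 0.820.

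**Figure D3:**
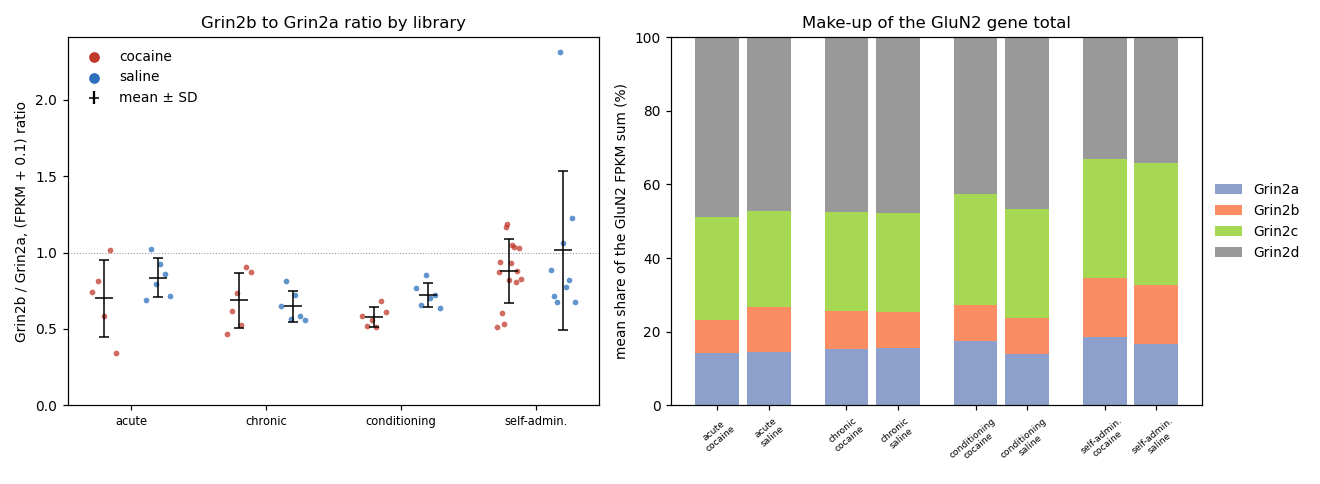
Left, the ratio of Grin2b to Grin2a, each with 0.1 FPKM added, in every library by paradigm, cocaine left of saline, with mean ± SD; 1 self-administration saline library stands at 2.31. Right, mean share (%) of each GluN2 gene in the summed FPKM of the 4 GluN2 genes per group: the Grin2d share is 33.1% and 34.3% in the self-administration groups and at least 42.7% in the others.

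Genes around the receptor were followed through a list of 45: scaffolds, kinases and phosphatases, co-agonist enzymes and transporters, trafficking partners and downstream signalling proteins. In none of the 4 paradigms, nor on average, did a listed gene pass the threshold for cocaine (0 of 44 tested, 45 in self-administration). The median log2 difference of the listed genes was -0.08 in acute, with 36 of 44 negative, -0.03 in chronic with 29 of 44 negative, -0.05 in conditioning with 31 of 44 negative and -0.03 in self-administration with 35 of 45 negative. Over all genes the median was between -0.0011 and 0.0024. The listed genes were measured in the same libraries, so their signs are not separate observations, and the counts of signs were not tested. By the smallest p in each role, conditioning gave Kif17, the motor that carries GluN2B vesicles (-0.28 ± 0.07), Nos1, the nitric oxide synthase tethered to the receptor through PSD-95 (-0.44 ± 0.12), and the kinase Camk2a (-0.31 ± 0.12; SE), each with an adjusted p of 0.591 in limma. There too were Slc6a9, the glycine transporter GlyT1 (0.16 ± 0.06), and the scaffold Dlgap1 (-0.09 ± 0.05; SE). In acute they were Kalrn (-0.18 ± 0.07), Cask (-0.11 ± 0.05), Dlg2 (-0.11 ± 0.06), Srr, the D-serine synthase (-0.09 ± 0.05), and Csnk2a1 (-0.07 ± 0.04; SE), each at an adjusted p of 0.985.

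In chronic the smallest p-values by role belonged to Ephb2 (-0.07 ± 0.04), Slc1a5 (0.21 ± 0.13), Cdk5 (0.06 ± 0.04), Dlg4, which encodes PSD-95 (-0.11 ± 0.08), and Nsmf (0.06 ± 0.06; SE), at adjusted p-values of at least 0.706. In self-administration they belonged to Dao, the D-amino acid oxidase that degrades D-serine (0.34 ± 0.13), Cdk5r1 (-0.10 ± 0.05), Kif17 (-0.11 ± 0.07), Nsmf (0.07 ± 0.07) and Dlg3 (-0.05 ± 0.05; SE), all at an adjusted p of 0.999. For the average effect the lead genes were Camk2d (-0.10 ± 0.03) and Kif17 (-0.13 ± 0.04), both at an adjusted p of 0.247, then Nos1 (-0.20 ± 0.09), Dlgap1 (-0.06 ± 0.03) and Dao (0.13 ± 0.08; SE). None of these passed the threshold.

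The larger differences were between paradigms. Against the mean of the 3 other paradigms, self-administration had lower Grin2d and higher Grin2b and Grin3a. This held both among cocaine and among saline libraries, which are separate sets. Each arm had 3 of 6 tested subunit genes past the threshold, 2 higher and 1 lower. Of all genes 60.9% were past it in the cocaine arm (32.9% higher, 28% lower) and 58.8% in the saline arm (31.7% higher, 27% lower), so that such a share is the background here. The median log2 difference over all genes was 0.02 in each arm. Paradigm, handling and any sequencing batch cannot be told apart in these contrasts.

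Grin2d showed the widest log2 difference among the 6 subunit genes that passed the filter on low values. With self-administered cocaine it had 3.92, 8.01 and 10.1 FPKM in the lowest, median and highest of 15 libraries, against 7.27, 12.7 and 14.9 FPKM in the 17 other cocaine libraries. With self-administered saline it had 4.05, 8.31 and 10.4 FPKM in 9 libraries, against 9.85, 12.0 and 16.5 FPKM in the 18 other saline libraries. Of the self-administration libraries, 4 of 15 with cocaine and 8 of 9 with saline lay below every library of the other paradigms in the same arm, and the remainder overlapped with them. The log2 difference was -0.59 ± 0.09 in the cocaine arm (SE; 95% interval -0.76 to -0.41; adjusted p 9.51e-08, limma) and -0.60 ± 0.10 in the saline arm (SE; 95% interval -0.80 to -0.39; adjusted p 1.41e-06, limma). The ratio of means was 0.640 in the cocaine arm and 0.645 in the saline arm. Without any 1 library the differences stayed within -0.62 to -0.53 (cocaine) and -0.64 to -0.50 (saline).

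Grin3b was lower still in proportion. It averaged 0.369 ± 0.162 FPKM with self-administered cocaine and 1.05 ± 0.39 FPKM in the other cocaine libraries (SD, n = 15 and 17). With self-administered saline it averaged 0.237 ± 0.098 FPKM, against 0.790 ± 0.338 FPKM in the other saline libraries (SD, n = 9 and 18). In the cocaine arm 14 of 15 self-administration libraries lay below every other library, and in the saline arm 4 of 9 did. The fit without the filter on low values gave log2 differences of -0.56 ± 0.07 (cocaine arm, SE; adjusted p 1.13e-08, limma) and -0.51 ± 0.09 (saline arm, SE; adjusted p 1.71e-06, limma).

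Grin2b had 2.07, 3.62 and 5.26 FPKM in the lowest, median and highest self-administration cocaine library, against 1.31, 2.42 and 3.87 FPKM in the other cocaine libraries. With saline the values were 1.87, 3.61 and 7.85 FPKM in self-administration and 1.92, 2.68 and 3.69 FPKM in the other paradigms. The groups overlapped in both arms, and 14 of 15 and 6 of 9 self-administration libraries lay above the median of the others. The log2 differences were 0.40 ± 0.10 (cocaine arm, SE; adjusted p 6.55e-04, limma) and 0.30 ± 0.12 (saline arm, SE; adjusted p 0.0244, limma). The second depended on single libraries: it was 0.18 (adjusted p 0.146) without self-administration saline library 3 and 0.24 (adjusted p 0.0862) without library 7.

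Grin3a had 11.4, 13.2 and 14.9 FPKM in the lowest, median and highest self-administration cocaine library, against 8.36, 11.1 and 12.8 FPKM in the other cocaine libraries. With saline it had 9.84, 13.6 and 17.2 FPKM, against 9.21, 11.6 and 13.2 FPKM in the other saline libraries. Among cocaine libraries 11 of 15, and among saline libraries 5 of 9, lay above every other library of the arm. The log2 differences were 0.23 ± 0.05 (cocaine arm, SE; adjusted p 1.95e-04, limma) and 0.17 ± 0.06 (saline arm, SE; adjusted p 0.0179, limma). The saline arm missed the threshold without saline library 3 (0.14, adjusted p 0.0557), library 5 (0.14, adjusted p 0.0533) or library 7 (0.12, adjusted p 0.0863).

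Grin1, Grin2a and Grin2c were not called in either arm of the main fit. Their log2 differences, self-administration minus the others, were -0.04 ± 0.08, 0.07 ± 0.07 and 0.04 ± 0.05 in the cocaine arm and -0.07 ± 0.09, 0.00 ± 0.09 and 0.06 ± 0.06 in the saline arm (SE). The sign of Grin1 in the cocaine arm turned under quantile normalization and under library quality weights, that of Grin2a in the saline arm under median-ratio scaling, and those of Grin1 and Grin2c in the saline arm under library quality weights. With those weights Grin2a passed the threshold in the cocaine arm (0.15, adjusted p 0.0453, limma).

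**Figure D4:**
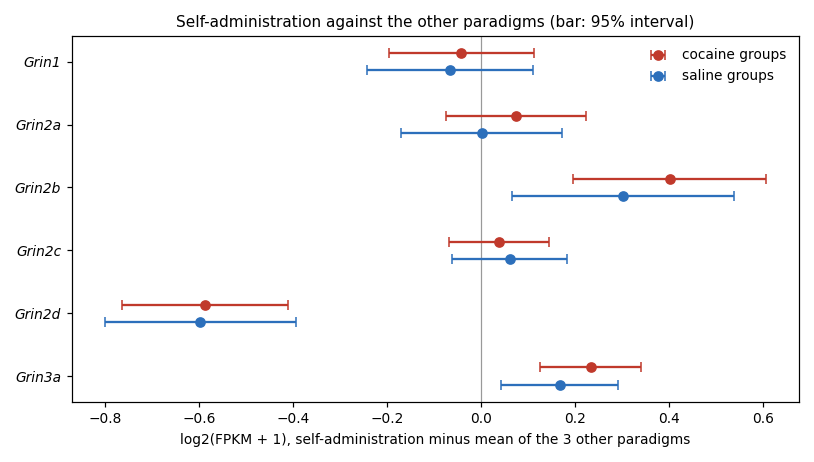
Differences in log2(FPKM + 1) between self-administration and the mean of the 3 other paradigms, for cocaine groups (upper point) and saline groups (lower point), with 95% intervals; Grin3b was under the filter. Grin2d lies near -0.60 in both arms, and Grin2b and Grin3a lie above 0 in both.

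Set against one another, the 4 GluN2 genes had another make-up in self-administration. Grin2d made up 33.6 ± 5.37% of their summed FPKM in 24 self-administration libraries and 46.7 ± 4.04% in the 35 others (SD). Grin2b made up 16.0 ± 4.17% in self-administration and 10.2 ± 1.98% in the others. Grin2c made up 32.6 ± 4.01% in self-administration and 27.9 ± 3.26% in the others, and Grin2a 17.8 ± 3.19% in self-administration and 15.2 ± 2.76% in the others (SD). The sum itself was 23.0 ± 2.93 FPKM in self-administration and 25.9 ± 2.33 FPKM in the others (SD), and its mean ratio to Grin1 was 0.330 in self-administration and 0.357 in the others.

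In ratio tests on saline libraries alone, 6 of 8 ratios differed between 9 self-administration and 18 other libraries (exact two-sided permutation tests, adjusted over the 8). The ratios share genes, so they are not separate results. In the limma contrast of self-administration saline with other saline 58.8% of all genes passed, and ratios of other gene pairs were not tested. Grin2d/Grin1 had a log2 difference of -0.59, with the smallest p the exact test can give, 2.13e-07 (adjusted 1.71e-06). Grin2d/Grin2b differed by -1.02 (exact permutation, adjusted p 1.79e-05) and Grin2d/Grin2a by -0.66 (adjusted p 7.28e-05). Grin2b/Grin2a was higher by 0.37, Grin2b/Grin1 by 0.43 and Grin3a/Grin1 by 0.25 (exact permutation, adjusted p 0.0247, 0.0247 and 0.0217). Grin2b/Grin2a fell short without saline library 3 (0.20, adjusted p 0.109) or library 7 (0.32, adjusted p 0.062), Grin2b/Grin1 without library 0, 3 or 7 (0.33, 0.33 and 0.38; adjusted p 0.0805, 0.0959 and 0.062), and Grin3a/Grin1 without library 0 (0.19, adjusted p 0.0604). Grin2a/Grin1 and Grin2c/Grin1 did not pass.

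Markers of other cell types were set against the same contrasts, in which 28% of all genes were lower and 32.9% higher in the cocaine arm, and 27% lower and 31.7% higher in the saline arm. In the cocaine arm 7 of 8 oligodendrocyte markers, 4 of 6 microglial, 3 of 7 general neuronal and 2 of 10 dopamine neuron markers were lower in self-administration, and in the saline arm 7 of 8, 5 of 6, 3 of 7 and 2 of 10 were. The oligodendrocyte and microglial counts are thus above the share of all genes that were lower, and the dopamine neuron count is not. For a list of 7, the general neuronal count is close to that share. The median log2 difference of the general neuronal markers was -0.0337 in the cocaine arm and -0.0048 in the saline arm, with 2 of 7 positive in each. Of the 10 dopamine neuron markers, 10 had negative differences in the saline arm and 7 in the cocaine arm. The list's mean log2(FPKM + 1) was 5.98 ± 0.48 in self-administration saline and 6.46 ± 0.5 in other saline libraries (SD). In the cocaine arm these were 5.97 ± 0.39 and 6.34 ± 0.65 (SD). The general neuronal list had 7.65 ± 0.13 and 7.98 ± 0.17 with saline, and 7.76 ± 0.22 and 8.07 ± 0.16 with cocaine (SD). Of 8 astrocyte markers, 3 were higher and 3 lower in the cocaine arm, and 4 higher and 2 lower in the saline arm. Of 4 hypothalamic and mammillary markers, 1 was higher in the cocaine arm and 2 in the saline arm, and Slc17a6, the vesicular glutamate transporter of the midbrain, was higher in both. Summed oligodendrocyte markers ran from 3510 to 7140 FPKM in self-administration cocaine and from 6310 to 9710 FPKM in other cocaine libraries, and from 3870 to 8360 FPKM and from 5790 to 9290 FPKM in the corresponding saline libraries. Summed dopamine neuron markers overlapped widely, at 665 to 2500 FPKM in self-administration cocaine and 701 to 2740 FPKM in other cocaine libraries, and 717 to 2510 FPKM in self-administration saline and 686 to 2750 FPKM in other saline libraries. Hypothalamic and mammillary markers summed to 13.4 to 90.0 FPKM in self-administration cocaine, 7.38 to 37.3 FPKM in other cocaine, 24.2 to 223 FPKM in self-administration saline and 10.2 to 77.0 FPKM in other saline libraries. No marker was at 0 in every library of a group, and the part of these cell types in the subunit differences was not tested.

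Receptor partners differed in number too: 27 of 44 listed genes passed the threshold in the cocaine arm (20 higher, 7 lower) and 26 of 44 in the saline arm (19 higher, 7 lower), shares close to the 60.9% and 58.8% of all genes. The median log2 difference of the listed genes was 0.09 in the cocaine arm and 0.10 in the saline arm. Among scaffolds, Dlgap3 was lower (-1.12 ± 0.10 with cocaine, -1.17 ± 0.12 with saline; SE), as was Dlgap4, while Dlg2 and Dlg3 were higher. Among kinases, Camk2a (0.61 ± 0.14 with cocaine, 0.68 ± 0.16 with saline) and Camk2d (0.30 ± 0.04 with cocaine, 0.30 ± 0.05 with saline; SE) were higher, with Csnk2a1. Of the trafficking partners Lin7b was lower (-0.86 ± 0.09 with cocaine, -0.90 ± 0.10 with saline) and Lin7c higher (0.46 ± 0.05 with cocaine, 0.47 ± 0.06 with saline; SE), and Kif17 and Cask were higher. Downstream, Nsmf was lower and Rasgrf1, Rasgrf2 and Kalrn higher in both arms. Of the co-agonist genes Slc7a10, a transporter of glycine and D-serine, was lower in both arms (-0.38 ± 0.10 with cocaine, -0.31 ± 0.11 with saline; SE). Slc6a9 was lower and Srr higher in the cocaine arm, and Dao was lower and Slc1a4 higher in the saline arm.

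Among the 4 saline groups, Grin2d was the subunit gene that differed by the moderated F test (F 11.9, adjusted p 2.39e-05, limma), as 48.3% of all genes did. It was lower in self-administration saline than in acute saline (-0.62 ± 0.13), chronic saline (-0.65 ± 0.13) and conditioning saline (-0.52 ± 0.13; SE), with adjusted p-values of 9.99e-05, 4.98e-05 and 8.21e-04 in limma, contrasts in which 45.7%, 46.8% and 49.3% of all genes passed. Grin2b was higher in self-administration saline than in conditioning saline (0.42 ± 0.15, SE, adjusted p 0.0183, limma). Against acute saline (0.14 ± 0.15) and chronic saline (0.35 ± 0.15, SE) it did not pass, at adjusted p-values of 0.473 and 0.0561 in limma. Grin3a passed against none of the acute, chronic and conditioning saline groups (0.15 ± 0.08, 0.18 ± 0.08 and 0.17 ± 0.08, SE). Its adjusted p-values were 0.108, 0.0561 and 0.0811 in limma. By the F test Grin2b missed the threshold (adjusted p 0.0598), as did Grin3a (adjusted p 0.127). Between the acute, chronic and conditioning saline groups 0 of 6 subunit genes were called in limma, against 0% of all genes for chronic with acute, 0.00758% for conditioning with acute and 0.0834% for conditioning with chronic, and 0 of 6 had an unadjusted p under 0.05.

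In the order of group means, Grin2d was highest in chronic (12.7 FPKM with cocaine, 12.9 FPKM with saline), then acute (12.1 FPKM with cocaine, 12.5 FPKM with saline) and conditioning (10.9 FPKM with cocaine, 11.6 FPKM with saline), and lowest in self-administration (7.61 FPKM with cocaine, 7.97 FPKM with saline). The step between conditioning cocaine and self-administration saline was the one that exceeded the SD of both neighbours, at 2.62 and 1.84 FPKM. Grin3b was highest in chronic (1.34 FPKM with cocaine, 0.928 FPKM with saline), then conditioning (1.02 FPKM with cocaine, 0.724 FPKM with saline), acute (0.737 FPKM with cocaine, 0.719 FPKM with saline) and self-administration (0.369 FPKM with cocaine, 0.237 FPKM with saline). Its step between acute saline and self-administration cocaine exceeded both SDs, 0.327 and 0.162 FPKM. For Grin1, Grin2a, Grin2b and Grin2c no neighbouring group means differed by more than the SD of both groups. Grin3a was highest in self-administration (13.3 FPKM with cocaine, 13.2 FPKM with saline), and the gap to the next mean, 11.8 ± 0.81 FPKM in acute cocaine, was less than the SD of self-administration saline.

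Covariation between subunit genes was measured on deviations from the group means, within the 24 self-administration and the 35 other libraries apart, which gave 42 relations. Of these, 2 passed the threshold, and the share of all gene pairs that would pass was not determined. Grin1 and Grin2d moved together in self-administration (Pearson r 0.908, Spearman rho 0.75, permutation p 1e-05, the smallest that 100000 permutations can give, adjusted p 0.00042). Without the 2 libraries farthest from the median of Grin1, r was 0.774. The farthest low pair were cocaine library 6, with 43.3 FPKM of Grin1 and 3.92 FPKM of Grin2d, and saline library 0, with 44.8 and 4.05 FPKM. In the other paradigms r was 0.536 (rho 0.494, permutation p 0.00652, adjusted p 0.0603), and 0.55 without the 2 farthest libraries. Grin2d and Grin3b covaried in the 35 other libraries (r 0.499, rho 0.55, permutation p 0.00101, adjusted p 0.0212; r 0.47 without the 2 farthest libraries). Grin2a and Grin2b did not pass in either set, at r 0.347 in self-administration and r 0.29 in the others (adjusted p 0.277 and 0.452, permutation).

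Each subunit gene was also set against the mean level of the marker lists in 70 relations. Of these 4 passed the threshold, all in the 35 libraries of the other paradigms, and the share of all genes that would pass was not determined. Grin3a was lower where the dopamine neuron list was higher (r -0.738, rho -0.758, permutation p 2e-05, adjusted p 0.0014; r -0.706 without the 2 farthest libraries), and in self-administration r was -0.463 (adjusted p 0.218, permutation). Grin3b was higher where the general neuronal list was higher (r 0.676, rho 0.713, permutation p 9e-05, adjusted p 0.00315; r 0.633 without the 2 farthest) and where the oligodendrocyte list was higher (r 0.579, rho 0.56, permutation p 0.00044, adjusted p 0.0103; r 0.473 without the 2 farthest). Grin2a was higher where the neuronal list was higher (r 0.546, permutation p 0.00182, adjusted p 0.0318; r 0.493 without the 2 farthest), though the adjusted p of rho, 0.539, was 0.0663. All genes of a library share its dissection, depth and composition.

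**Figure D5:**
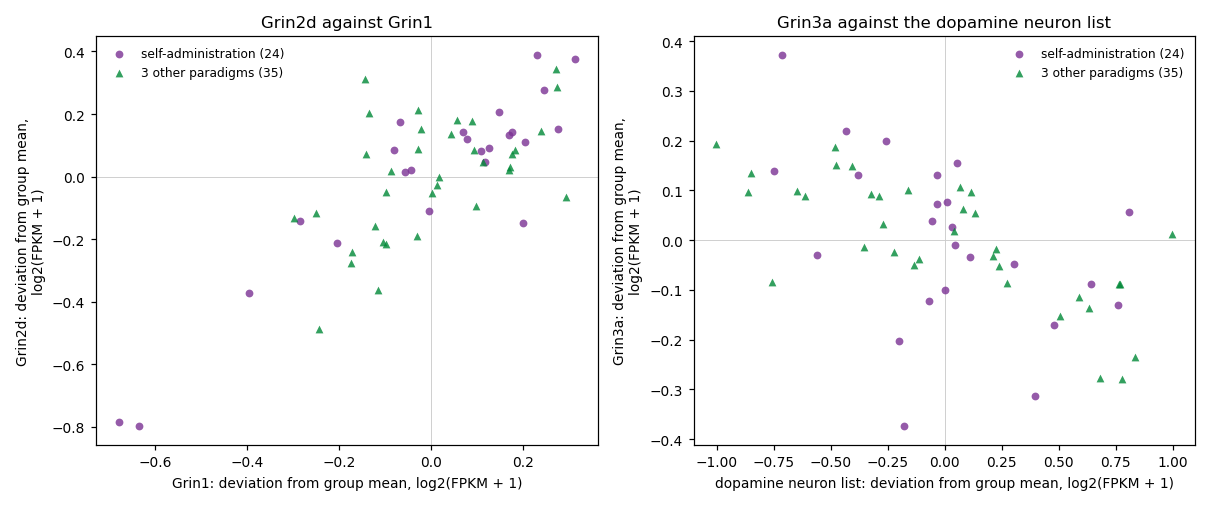
Deviations of log2(FPKM + 1) from the group mean in 24 self-administration libraries (circles) and 35 libraries of the other paradigms (triangles). Left, Grin2d against Grin1, with r 0.908 in self-administration, where 2 libraries lie far below the others; right, Grin3a against the mean of the dopamine neuron list, with r -0.738 in the other paradigms.

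Among 13185 other genes, the 3 whose deviations followed each subunit gene most closely in both sets were named by the smaller of the 2 Pearson r values. For Grin1 they were Adam11, Slc12a5, the neuronal potassium chloride exporter KCC2, and Ltbp3, with r of 0.912, 0.917 and 0.899 in self-administration and 0.906, 0.896 and 0.892 in the other paradigms. For Grin2d they were Pcnxl3, Cacng8, an auxiliary subunit of AMPA receptors, and Man2b2, with r of 0.861, 0.858 and 0.874 in self-administration and 0.908, 0.903 and 0.852 in the other paradigms. Genes that followed Grin2a closely included Ppm1l and Apc (0.879 and 0.829 in self-administration, 0.811 and 0.786 in the others), and Grin2b was followed by Tmem245, Atf7ip and Zfp462 (0.844, 0.678 and 0.694 in self-administration, 0.824, 0.673 and 0.626 in the others). Grin3a was followed by Ptprk, Sorcs1 and Stk26 (0.82, 0.78 and 0.749 in self-administration, 0.863, 0.833 and 0.789 in the others). Grin2c had the loosest companions of the 6: Shb, Hcrt, the orexin precursor, and Sox8 (0.619, 0.551 and 0.634 in self-administration, 0.631, 0.621 and 0.543 in the others). Grin3b, under the minimum mean, was not searched. These r values describe 24 and 35 libraries and carry no test.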

How the data were processed

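RNA sequencing of total RNA from mouse VTA gave 59 libraries in 8 groups. Per the labels' protocols, an RNeasy kit gave the RNA and a TruSeq RNA kit the libraries. The authors deposited 1 table of FPKM by gene symbol. Bowtie, Cuffnorm and the build mm10 are named per the submitters' processing notes, and the sources used here give no versions, annotation or strand setting. FPKM divides by transcript length and library total, so composition, GC content and fragment length can move the values. No single read step held most of the low values (the most frequent step held 0.813% to 9.37% of low genes). Depth was therefore not recovered from them, and no count test was run. All columns were mapped to groups by name. Their numbers, counted from 0, match no replicate number in the labels and serve as names only. No library pair was identical.

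Genes averaging 1 FPKM or more across the libraries fitted were tested on log2(FPKM + 1) with limma 3.58.1 in R 4.3.3 (empirical Bayes, trend and robust options, two-sided), with Benjamini-Hochberg adjustment over all genes and a threshold of 0.05. Each paradigm had its own fit; the average, the differences between paradigms and the paradigm contrasts used all libraries. The cocaine arm of the self-administration contrast was added after the saline arm had been seen. Ratios took FPKM + 0.1. Permutation tests used Python 3.11.15 with numpy 2.4.6 and scipy 1.17.1. The limma fits within single paradigms were tried on simulated data, with changes placed in genes of below-median spread. The fits that used all libraries were not tried in this way. Alternatives were another pseudocount, no filter, quantile and median-ratio scaling, library quality weights, plain empirical Bayes, 1 shared fit, a block for the column number and leaving out each library.

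The text names the 7 subunit genes, in each role of the partner list the members past the threshold (at most 4) or otherwise the 1 with the smallest p, and the 3 genes most like each subunit gene. Some genes that this rule names are not reported here. The members and lists were chosen with earlier results of these data known. A marker list's level is the mean log2(FPKM + 1) of its members. Coordinates follow GENCODE M21 (GRCm38), the assembly that mm10 names.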

Additional observations from a re-analysis of the deposited data

Results flagged for a closer look

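Single libraries stood apart in 4 of the 56 sets of values examined, by Dixon's test at the 95% level, which chance alone would mark in about 1 of 20. The lowest Grin1 value in self-administration saline, 44.8 FPKM in library 0, lay far below the next, 66.2 FPKM, in a group that reached 87.2 FPKM. The highest Grin2a value in conditioning cocaine, 5.75 FPKM in library 0, stood above the next, 4.45 FPKM. The lowest Grin2c value in acute saline, 6.04 FPKM in library 5, stood below the next, 6.95 FPKM. The ratio of Grin2b to Grin2a reached 2.31 in self-administration saline library 3, where the next highest was 1.22.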

How the results depend on the processing

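Of values called past the threshold, 64 of 64 kept direction and call under the settings that used all libraries, and leaving out 1 library ended 11 of 575, all in self-administration saline against other saline. Of values not called, 21 changed sign under the settings that used all libraries, and leaving out 1 library changed the sign in 137 cases and kept direction and call in 2106. A further 6 passed the threshold under the settings that used all libraries, Grin2a in the cocaine arm with library quality weights among them, and 6 with 1 library left out. Under alternatives the count of all genes past the threshold was 1 in chronic in 1 fit of all groups, 1 in conditioning with library quality weights, 1 (weights) and 2 (1 fit of all groups) in self-administration, and 41 for the average effect with weights. The saline F test called 2 subunit genes with no filter, 2 with quantile normalization and 3 with weights, and 4 subunit correlations passed on log2(FPKM + 0.1), where 1 gene, 0 in each paradigm, 1 subunit gene and 2 correlations stand in the main results. The causes were not tested.

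Signs turned as follows (log2 differences). With weights, for cocaine, Grin3a was -0.013 in acute, Grin1 0.0052 in chronic, Grin1 0.0604, Grin2b -0.022 and Grin2d 0.004 in conditioning, and Grin1 0.0065, Grin2c 0.11 and Grin3a -0.11 in self-administration. For the average effect Grin1 was 0.0097, Grin2a -0.004 and Grin2c 0.026. For self-administration against the others Grin1 was 0.016 in the cocaine arm, and Grin1 was 0.019 and Grin2c -0.045 in the saline arm. Quantile normalization gave Grin2a 0.0103 for chronic cocaine and Grin1 0.021 in the cocaine arm. Median-ratio scaling gave Grin1 0.001 for self-administered cocaine and Grin2a -0.012 in the saline arm. On log2(FPKM + 0.1) Grin2b was -0.0008 in conditioning, and with no pseudocount Grin2b/Grin1 was 0.0016 in self-administration.

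With 1 library left out, the counts of genes past the threshold ran from 0 to 1 in chronic and 1 to 3 for the average effect, and those of subunit genes from 1 to 3 for the saline F test and 1 to 3 for the saline arm. Log2 differences for cocaine that changed sign ran from -0.062 to 0.041 for Grin1, -0.093 to 0.014 for Grin2d and -0.009 to 0.043 for Grin3a in acute. In chronic they ran from -0.048 to 0.034 for Grin2a, -0.043 to 0.076 for Grin2b, -0.046 to 0.061 for Grin2c and -0.054 to 0.057 for Grin2d. In conditioning they ran from -0.058 to 0.046 for Grin1, -0.065 to 0.037 for Grin2b, -0.026 to 0.086 for Grin2c and -0.0603 to 0.017 for Grin3a. In self-administration they ran from -0.081 to 0.046 for Grin1, -0.099 to 0.10 for Grin2b, -0.048 to 0.012 for Grin2c, -0.15 to 0.0044 for Grin2d and -0.021 to 0.073 for Grin3a. The average effect ran from -0.047 to 0.0016 for Grin1, -0.019 to 0.0056 for Grin2c and -0.034 to 0.0011 for Grin3a. For self-administration against the others the ranges were -0.062 to 0.0063 for Grin1 in the cocaine arm, and -0.10 to 0.013 for Grin1 and -0.026 to 0.043 for Grin2a in the saline arm.

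Log2 ratios ran in acute from -0.11 to 0.036 for Grin2c/Grin1, -0.11 to 0.014 for Grin2d/Grin1 and -0.044 to 0.073 for Grin3a/Grin1. In chronic they ran from -0.034 to 0.16 for Grin2b/Grin2a, -0.081 to 0.11 for Grin2d/Grin2a, -0.15 to 0.096 for Grin2d/Grin2b, -0.042 to 0.15 for Grin2a/Grin1, -0.027 to 0.21 for Grin2b/Grin1 and -0.013 to 0.092 for Grin2d/Grin1. In conditioning they ran from -0.11 to 0.057 for Grin2b/Grin1, -0.031 to 0.12 for Grin2c/Grin1 and -0.053 to 0.051 for Grin3a/Grin1. In self-administration they ran from -0.19 to 0.0299 for Grin2b/Grin2a, -0.19 to 0.044 for Grin2d/Grin2b, -0.11 to 0.10 for Grin2b/Grin1, -0.077 to 0.084 for Grin2c/Grin1 and -0.044 to 0.089 for Grin3a/Grin1. In the saline arm the range was 0.20 to 0.43 for Grin2b/Grin2a and -0.046 to 0.13 for Grin2a/Grin1.

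Same-numbered libraries of the 2 arms correlated in their deviations at 0.033 to 0.273 in acute and -0.262 to 0.318 in chronic. The ranges were -0.069 to 0.202 in conditioning and -0.126 to 0.384 in self-administration. The medians in the same order were 0.106, 0.181, 0.142 and 0.035. Of these pairs 2 of 5, 3 of 6, 2 of 6 and 1 of 9 correlated best with their own number. Whether the numbers pair the samples was not tested. With the column number as a replicate block the count of genes past the threshold was 0 in each paradigm and 1 for the average effect, and 40 of 41 values kept direction and call. Grin3a in self-administration turned to -0.0051 under the block.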

Other observations

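Grin1os, the opposite-strand RNA whose exons overlap those of Grin1, averaged 15.4 ± 2.10 FPKM with self-administered cocaine and 16.0 ± 1.87 FPKM with self-administered saline (SD, n = 15 and 9). In the 6 other groups its means lay between 13.0 FPKM, in chronic cocaine, and 14.4 FPKM, in acute cocaine. It was chosen after the overlap had been seen, and it was not tested.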
